A study of Mus musculus with 4 samples.

Results

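Goblet cells make the mucus that separates the colon epithelium from the bacteria of the lumen. The genes described here are 36 goblet cell and mucus layer genes, listed by symbol from knowledge of these cells and matched to the Entrez gene identifiers of the deposited tables. The list and its roles were drawn up with earlier results of these data known. Of the 36 genes, 34 had a row among the 18872 genes listed in the files, and 31 of these had enough counts to be tested. Muc3 and Fer1l6 were not analysed here, and Tff1, Tff2 and Agr3 were close to 0 counts throughout.

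RNA came from primary colon epithelial cells of mice labelled EZH2-IEC-/-, which lack Ezh2 in intestinal epithelial cells (knockout, 2 libraries), and of wild-type mice (2 libraries). Ezh2 is the histone methyltransferase of Polycomb repressive complex 2, which silences genes. Mice of both genotypes had received 2% dextran sulfate sodium (DSS), which injures the colon lining, over 3 days, so every difference below is one between genotypes under DSS. Untreated libraries were not analysed here. The labels name neither the promoter used to delete Ezh2 nor the strain or age of the mice. Nor do they say whether libraries of 1 genotype are separate animals, so the p-values reflect the spread among these 4 libraries alone, which could be technical.

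As background, a goblet cell arises when a progenitor escapes Notch signalling and expresses Atoh1, after which Spdef, Foxa and Klf4 factors drive its maturation. It packs Muc2, a gel-forming mucin folded in the endoplasmic reticulum (ER) with the help of Agr2, into granules together with Fcgbp, Clca1, Zg16 and trefoil peptides. Membrane mucins such as Muc1, Muc4 and Muc13 are a separate class: they stay anchored in the cell surface and are made by absorptive cells as well as goblet cells. Retnlb, an antibacterial protein of goblet cells, is known to be induced when bacteria or type 2 cytokines reach the epithelium.

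The promoters of 5 of these genes are printed first, because Foxa2 is one of the fate factors that fell and forkhead factors such as Foxa2 bind DNA. They run from 250 bases before to 50 bases after the start site, 5′ to 3′ on the strand of the gene, from RefSeq (GRCm38.p6). Capitals mark each match to the forkhead motif TGTTTNC or its reverse complement GNAAACA. The Agr2 window lies on the plus strand at chr12:35992675-35992974, Muc20 on the minus strand at chr16:32797386-32797685, Muc2 on the plus strand at chr7:141690090-141690389, Reg4 on the plus strand at chr3:98221906-98222205 and Muc4 on the plus strand at chr16:32735636-32735935.
Agr2: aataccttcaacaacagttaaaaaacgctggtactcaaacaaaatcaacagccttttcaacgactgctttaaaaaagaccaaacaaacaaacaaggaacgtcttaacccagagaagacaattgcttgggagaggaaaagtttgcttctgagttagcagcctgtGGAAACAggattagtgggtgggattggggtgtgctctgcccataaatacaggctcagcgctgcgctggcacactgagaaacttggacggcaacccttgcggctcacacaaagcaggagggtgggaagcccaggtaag
Muc20: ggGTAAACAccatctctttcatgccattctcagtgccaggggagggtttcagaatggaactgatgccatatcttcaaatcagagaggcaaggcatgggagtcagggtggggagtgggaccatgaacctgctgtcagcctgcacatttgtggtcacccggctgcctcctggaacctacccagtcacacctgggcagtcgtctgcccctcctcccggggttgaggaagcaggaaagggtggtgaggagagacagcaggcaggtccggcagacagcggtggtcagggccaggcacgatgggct
Muc2: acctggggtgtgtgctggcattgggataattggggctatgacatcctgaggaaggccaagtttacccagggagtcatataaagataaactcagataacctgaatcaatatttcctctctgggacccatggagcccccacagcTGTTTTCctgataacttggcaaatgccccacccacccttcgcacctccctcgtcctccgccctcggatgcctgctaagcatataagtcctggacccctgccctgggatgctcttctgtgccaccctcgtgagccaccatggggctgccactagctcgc
Reg4: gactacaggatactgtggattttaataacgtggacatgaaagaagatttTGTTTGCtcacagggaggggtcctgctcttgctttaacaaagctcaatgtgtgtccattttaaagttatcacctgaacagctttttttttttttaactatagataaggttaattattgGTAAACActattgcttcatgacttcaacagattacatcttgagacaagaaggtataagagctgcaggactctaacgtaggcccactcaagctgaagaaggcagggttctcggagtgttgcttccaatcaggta
Muc4: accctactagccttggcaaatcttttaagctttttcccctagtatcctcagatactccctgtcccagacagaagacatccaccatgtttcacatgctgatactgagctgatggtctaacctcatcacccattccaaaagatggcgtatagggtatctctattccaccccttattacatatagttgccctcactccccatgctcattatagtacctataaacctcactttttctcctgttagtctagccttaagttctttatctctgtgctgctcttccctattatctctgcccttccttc
Agr2, Muc20 and Muc2, which rose in the knockout, each held 1 match, beginning 87, 248 and 108 bases before the start site. Reg4, which fell, held 2 matches, 201 and 83 bases before it. Muc4, the chromosomal neighbour of Muc20, rose as Muc20 did and held none. A match is a run of letters and says nothing of binding. Of the 36 genes, 24 had a promoter window, and 9 of these 24 genes (37.5%) held the forkhead motif in at least 1 window, against 22.8% of all 27025 genes with a window. Those of the 9 not printed were Muc1 and Muc13, which rose, Guca2a, which fell, and Foxa1 and Creb3l4, which did not pass. The same search on both strands found the E-box CAGCTG, a kind of site that Atoh1 binds, in 5 of the 24 genes (20.8%, against 18.3% of all genes). It found GGGTGTGG, a Klf4-type site, in 3 (12.5%, against 4.09%), and CCACGTCA, a site type of the Creb3 family, in 0 (against 0.714%). None of these motifs is contained in another, and they were chosen after the values were known.

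Across the 4 libraries, estimated counts summed to 5399949 and 5446998 in the knockout and to 5037367 and 5236519 in wild type. Gene levels are given as FPKM, fragments per kilobase of transcript scaled to the sequenced depth, as the authors deposited them, and levels of different genes are compared only on this per-length scale. Each fold change is a log2 value (knockout minus wild type) ± standard error from edgeR's quasi-likelihood test on counts over 13608 genes, and a gene is said to have risen or fallen only if its Benjamini-Hochberg adjusted p was under 0.05. Ezh2 itself was counted at 86 and 83 in the knockout libraries, against 105 and 102 in the wild-type libraries (log2 fold change -0.27 ± 0.17, adjusted p = 0.217). Gene-level counts cannot tell whether an exon is missing.

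The mucus genes did not move as one block. Of the 31 tested, 11 rose and 7 fell in the knockout, while 13 did not pass. For comparison, 23.0% of all tested genes rose and 20.8% fell, 43.7% in all. Genes higher in the knockout were 52.5% of all calls, and 42.4% with library totals alone, 44.4% with limma on log2(FPKM + 1) and 36.4% with limma on equal totals. The median log2 fold change was 0.12 over the 31 genes and -0.002 over all genes. Summed over the list, the genes made up 1.95% and 2.06% of all FPKM in the knockout libraries, against 2.16% and 2.27% in the wild-type libraries. A share of all FPKM sets library totals equal. With limma on equal totals the median log2 fold change of all genes was -0.145, so a lower share is not particular to these genes. In bulk RNA, a change in the number of goblet cells and a change in RNA per goblet cell cannot be told apart. By role, 4 of 4 tested membrane mucins rose and 0 fell, 1 of 9 fate factors rose and 3 fell, and 1 of 5 tested secreted mucus proteins rose and 2 fell. The median log2 fold change was 1.85 for membrane mucins, -0.09 for fate factors and -0.19 for secreted mucus proteins. Over the alternative settings these medians ranged from 0.96 to 2.00, from -0.26 to 0.06 and from -0.49 to -0.07, so the sign of the fate factor median was not settled: it was positive without knockout replicate 1 (0.04) and without wild-type replicate 2 (0.06).

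**Figure D1:**
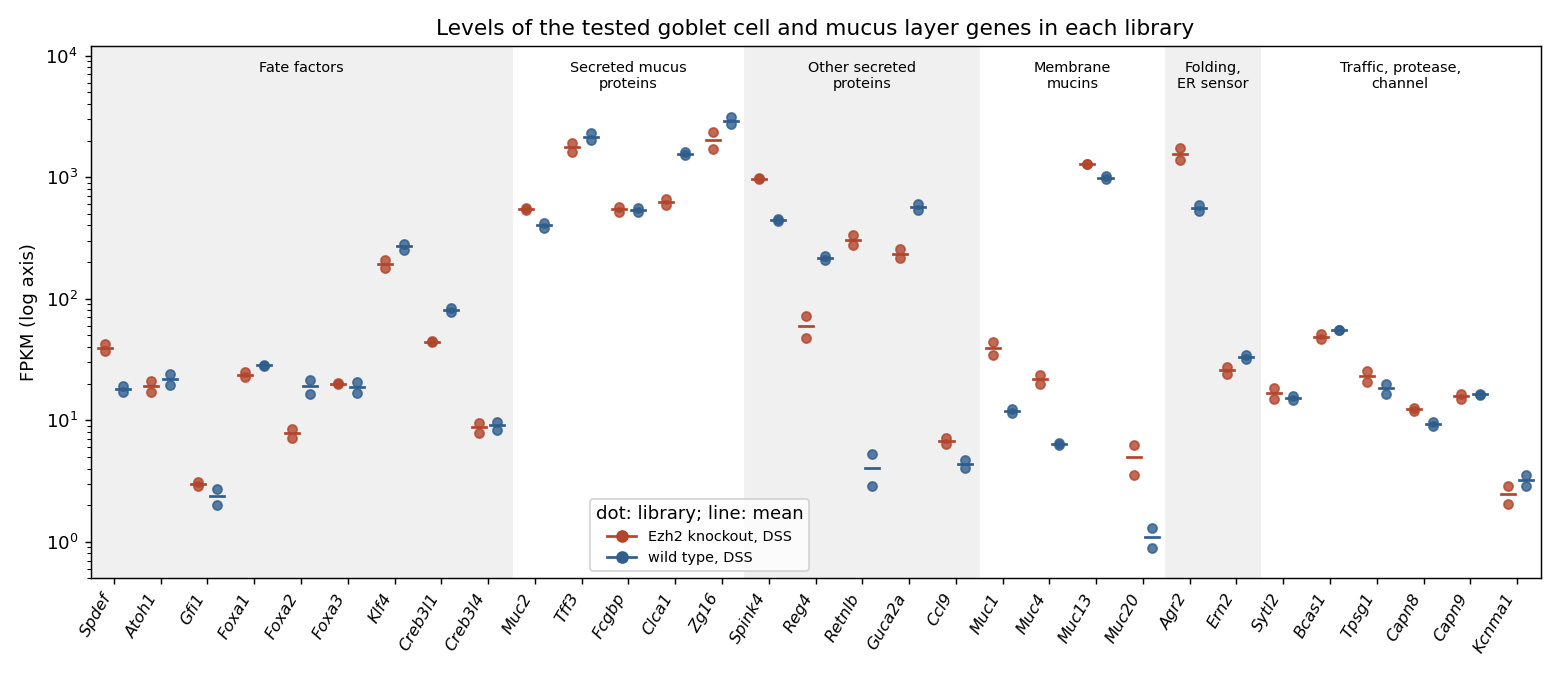
FPKM (log axis) of the 31 tested genes in each library, grouped by role, with Ezh2 knockout (red) left of wild type (blue); dots are libraries and short lines are means of 2. Retnlb stood at 276 and 337 FPKM in the knockout and at 2.86 and 5.22 FPKM in wild type, while Zg16, Tff3 and Muc13 lay between 967 and 3114 FPKM in all 4 libraries.

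Among the fate factors, Spdef, which drives the maturation of goblet cells, rose and 3 others fell. Spdef was at 42.2 and 37.0 FPKM in the knockout libraries, against 16.9 and 19.0 FPKM in the wild-type libraries. Both knockout libraries lay above both wild-type libraries, and the log2 fold change was 1.24 ± 0.12 (adjusted p = 5.63e-05). Atoh1, the factor that commits a progenitor to the secretory lineage and acts upstream of Spdef, was at 17.1 and 20.9 FPKM in knockout, against 19.6 and 23.8 FPKM in wild type. The groups overlapped and Atoh1 did not pass (-0.09 ± 0.15, adjusted p = 0.661). The FPKM ratio of Spdef to Atoh1 was 2.47 and 1.77 in the knockout libraries, against 0.863 and 0.798 in the wild-type libraries.

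Foxa2, a forkhead factor of goblet and enteroendocrine cells, was at 8.41 and 7.15 FPKM in knockout, against 16.5 and 21.6 FPKM in wild type. It fell by 1.18 on the log2 scale (SE 0.18, adjusted p = 0.000711), with no overlap between the groups. Its family members Foxa1 and Foxa3 missed the threshold, at -0.15 ± 0.09 and 0.20 ± 0.13 on the log2 scale (adjusted p = 0.233 and 0.256). Relative to Foxa1, Foxa2 stood at 0.369 and 0.29 in the knockout libraries, against 0.589 and 0.758 in the wild-type libraries, as a ratio of FPKM. Whether the change of Foxa2 differs from that of Foxa1 or Foxa3 was not tested.

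Creb3l1, an ER stress transducer that goblet cells need for their terminal maturation, was at 44.1 and 44.5 FPKM in knockout, against 77.5 and 83.9 FPKM in wild type (-0.76 ± 0.09, adjusted p = 0.000225). The 2 libraries of each group lay close together and the groups were well apart. Its relative Creb3l4 was at 7.91 and 9.51 FPKM in knockout, against 8.36 and 9.73 FPKM in wild type, and did not pass (adjusted p = 0.845). Klf4, a zinc finger factor required for colonic goblet cells, was the most abundant fate factor. It was at 177 and 208 FPKM in knockout, against 253 and 284 FPKM in wild type (-0.38 ± 0.10, adjusted p = 0.0134), a call lost when wild-type replicate 2 was left out (-0.29, adjusted p = 0.114). Gfi1, which separates goblet from enteroendocrine fate, was at 2.85 and 3.1 FPKM in knockout, against 2.01 and 2.73 FPKM in wild type, and did not pass (adjusted p = 0.238).

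Of the 7 secreted mucus protein genes, Muc2, Tff3, Fcgbp, Clca1 and Zg16 were each at 384 FPKM or more in every library, and Tff1 and Tff2 were close to 0. Muc2, the gel-forming mucin of the colon, was at 534 and 552 FPKM in the knockout libraries, against 384 and 420 FPKM in the wild-type libraries. It rose by 0.54 ± 0.06 on the log2 scale (adjusted p = 0.000179). Clca1, a secreted metalloprotease that cleaves the Muc2 network, went the other way, at 662 and 594 FPKM in knockout and at 1596 and 1515 FPKM in wild type (-1.21 ± 0.07, adjusted p = 2.58e-06). The FPKM ratio of Clca1 to Muc2 was 1.24 and 1.08 in the knockout libraries, against 4.16 and 3.61 in the wild-type libraries. By FPKM, Clca1 ranked 129 and 144 among all genes in the knockout libraries and 17 and 19 in the wild-type libraries.

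Zg16, a lectin-like protein that binds Gram-positive bacteria, was the most abundant of the 36 genes in 3 of the libraries and second to Agr2 in knockout replicate 1. It was at 1696 and 2355 FPKM in knockout, against 2727 and 3114 FPKM in wild type. The fall of 0.43 (SE 0.14, adjusted p = 0.0325) was no larger than the gap between the 2 knockout libraries: without knockout replicate 1, the lower of them, the log2 fold change was -0.21 (adjusted p = 0.0656), and without wild-type replicate 2 it was -0.33 (adjusted p = 0.139). DESeq2 did not call Zg16 (-0.42, adjusted p = 0.225), nor did edgeR with no filter on low counts (adjusted p = 0.058).

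Tff3, the trefoil peptide of goblet cells, was at 1602 and 1925 FPKM in knockout, against 2016 and 2295 FPKM in wild type. Its groups did not overlap, but it did not pass (-0.19 ± 0.10, adjusted p = 0.178). Tff3 was called lower with limma on equal totals (-0.37, adjusted p = 0.0354), with limma on quantile normalized values (-0.49, adjusted p = 0.00676) and without knockout replicate 2 (-0.32, adjusted p = 0.0238), and was at -0.07 without knockout replicate 1. Fcgbp, a large protein bound to the Muc2 gel, was at 517 and 569 FPKM in knockout, against 519 and 555 FPKM in wild type, with overlapping groups (0.12 ± 0.06, adjusted p = 0.163). Fcgbp, Muc13, Ccl9 and Kcnma1 had fractional counts in at least 1 library, so reads could be shared with similar sequences and their values are less certain. Tff1 and Tff2, trefoil peptides of the stomach, were listed at 1 and 3 and at 1 and 1 counts in the knockout libraries and had no count in wild type. Both groups were at or under the floor of 3 counts, so no fold is given, and 3 counts is also what a count of 0 allows. Tff3, Tff2 and Tff1 lie next to each other on chromosome 17, and only Tff3 of these 3 was expressed above that floor.

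**Figure D2:**
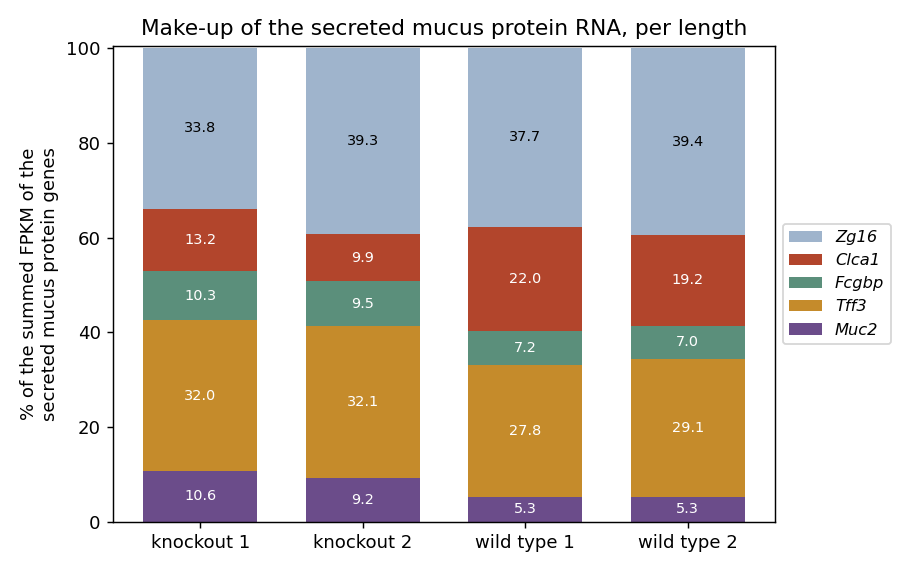
Share of each gene in the summed FPKM of the secreted mucus protein genes, as stacked bars for 4 libraries, knockout left of wild type; Tff1 and Tff2 are too low to draw. Muc2 made up 10.6% and 9.21% in the knockout and 5.3% and 5.32% in wild type, while Clca1 made up 13.2% and 9.9% in the knockout and 22.0% and 19.2% in wild type.

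The summed FPKM of the 7 secreted mucus protein genes was 5011 and 5998 in the knockout libraries, against 7242 and 7899 in the wild-type libraries. Muc2 and Fcgbp, the long gel proteins, together with Tff3, took larger shares of that sum in both knockout libraries than in either wild-type library. Clca1 took smaller ones, and the shares of Zg16 overlapped between groups (33.8% and 39.3% in knockout, 37.7% and 39.4% in wild type). These shares come from the values of the same 7 genes and carry no test of their own.

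All 5 of the other secreted proteins changed, 3 upward and 2 downward. Retnlb was the member with the largest change. It was counted at 1264 and 1045 in the knockout libraries, against 10 and 19 in the wild-type libraries, which is 337 and 276 FPKM against 2.86 and 5.22 FPKM. The log2 fold change was 6.33 ± 0.21 (adjusted p = 1.4e-07), an 80.3-fold rise. By FPKM, Retnlb ranked 255 and 314 among all genes in the knockout libraries, against 10638 and 8827 in the wild-type libraries.

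Spink4, which encodes a Kazal-type protease inhibitor of goblet cells, was at 957 and 982 FPKM in knockout, against 432 and 449 FPKM in wild type (1.24 ± 0.08, adjusted p = 5.99e-06). Reg4, a lectin of the regenerating family that marks deep crypt secretory cells in mouse colon, was at 47.2 and 72.2 FPKM in knockout, against 208 and 226 FPKM in wild type. It fell by 1.76 on the log2 scale (SE 0.17, adjusted p = 6.38e-05), so Retnlb, Spink4 and Reg4 did not move together although goblet or deep secretory cells are known to make each of them. Guca2a, the peptide guanylin that stimulates fluid secretion, was at 215 and 255 FPKM in knockout, against 533 and 598 FPKM in wild type (-1.16 ± 0.11, adjusted p = 5.39e-05). Ccl9, a chemokine, was low, at 6.38 and 7.19 FPKM in knockout, against 4.73 and 4.06 FPKM in wild type (0.73 ± 0.18, adjusted p = 0.0104). Its call was lost without wild-type replicate 2 (adjusted p = 0.0654) and with DESeq2 (adjusted p = 0.0825).

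**Figure D3:**
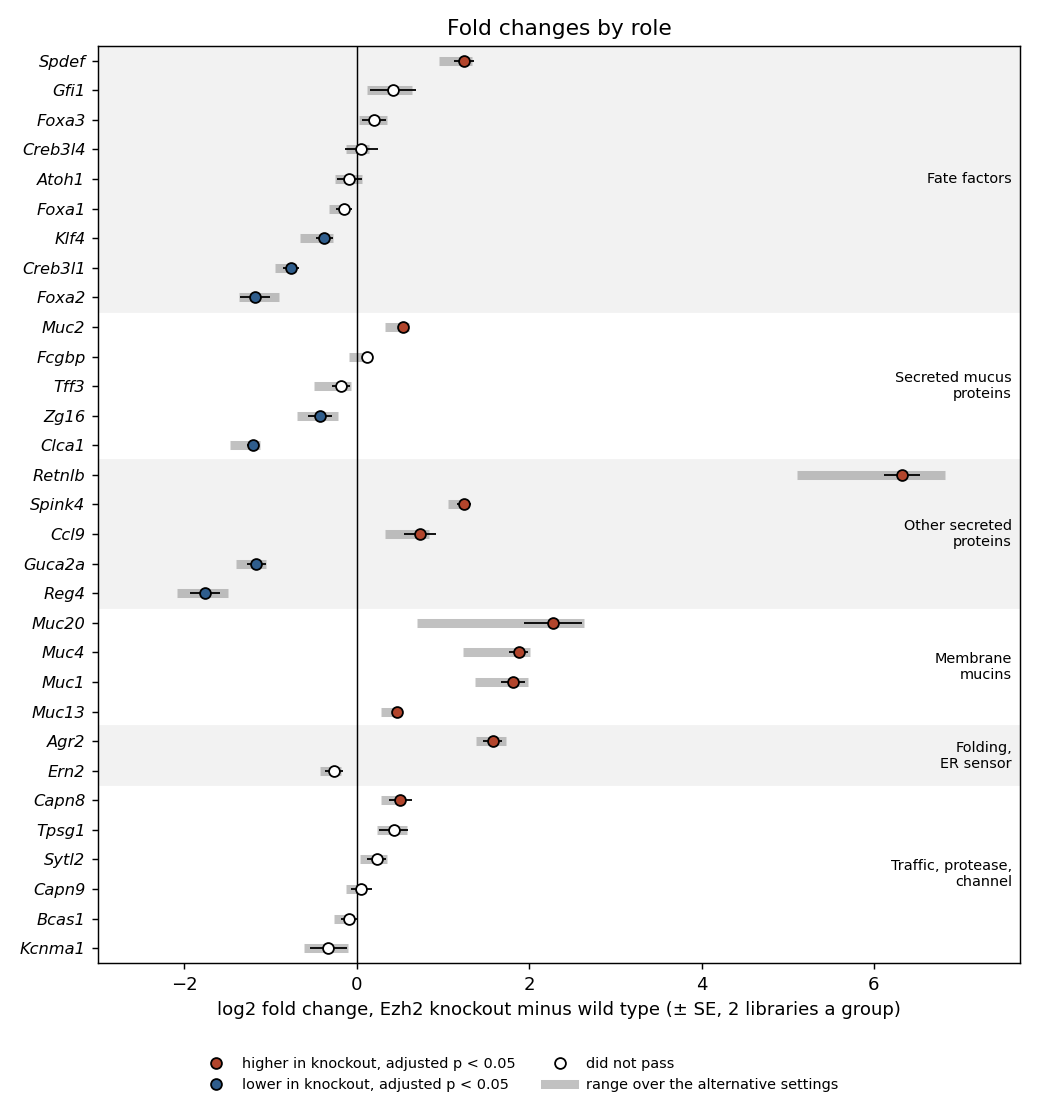
Log2 fold change (knockout minus wild type) of the 31 tested genes by role, with points ± SE from edgeR, filled red where higher and blue where lower at an adjusted p under 0.05, and grey bars for the range over the 16 alternative settings. Membrane mucins lie between 0.47 and 2.28, and the long grey bars of Muc20 and Retnlb reach down to settings that add a constant to FPKM before taking logs, which understates the change of low genes.

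All 4 tested membrane mucins rose. Muc1, whose cytoplasmic tail takes part in signalling, was at 43.8 and 34.3 FPKM in the knockout libraries, against 11.4 and 12.4 FPKM in the wild-type libraries (1.81 ± 0.14, adjusted p = 1.61e-05). Muc4, a long membrane mucin that binds the receptor ErbB2, was at 23.7 and 19.8 FPKM in knockout, against 6.47 and 6.22 FPKM in wild type (1.88 ± 0.11, adjusted p = 3.35e-06). For both genes knockout replicate 1 was the higher library of its group and no knockout library overlapped wild type.

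Muc20, which lies next to Muc4 on chromosome 16, was at 6.29 and 3.57 FPKM in knockout, against 1.29 and 0.88 FPKM in wild type, from 125 and 72 counts against 24 and 17. It had the largest log2 fold change of the group with the largest error, 2.28 ± 0.34 (adjusted p = 0.000712). Muc13, the dominant membrane mucin of the colon, was at 1280 and 1275 FPKM in knockout, against 1016 and 967 FPKM in wild type (0.47 ± 0.06, adjusted p = 0.000202). On the FPKM scale it exceeded Muc1 by 29.2 and 37.2 times in the knockout libraries and by 89.1 and 77.9 times in the wild-type libraries. The summed FPKM of the 4 measured membrane mucins was 1354 and 1333 in knockout, against 1035 and 986 in wild type, and Muc13 was most of it. Each of the 4 passed under all 16 alternative settings.

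Agr2, a protein disulfide isomerase of the ER that mucin folding depends on, rose. It was at 1724 and 1390 FPKM in the knockout libraries, against 591 and 529 FPKM in the wild-type libraries (1.58 ± 0.11, adjusted p = 9.41e-06). Relative to Muc2, Agr2 stood at 3.23 and 2.52 in knockout and at 1.54 and 1.26 in wild type, as a ratio of FPKM. Its chromosomal neighbour Agr3 was counted at 1 in each of the 4 libraries. Ern2, the epithelial form of the ER stress sensor IRE1, was at 24.1 and 27.2 FPKM in knockout, against 31.7 and 34.4 FPKM in wild type. It did not pass (-0.26 ± 0.10, adjusted p = 0.07), but passed as lower with library totals alone (-0.36, adjusted p = 0.0201), and its transcript list differs between the replicate 1 and replicate 2 files.

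Of 6 tested genes of granule traffic, proteases and channels, 1 rose and 0 fell. Capn8, a calpain protease, was at 12.6 and 11.9 FPKM in knockout, against 9.58 and 8.91 FPKM in wild type (0.51 ± 0.14, adjusted p = 0.0157), a call that was lost without wild-type replicate 2 (adjusted p = 0.0904) and with DESeq2 (adjusted p = 0.148). Capn9, the calpain that pairs with it in the stomach, was at 15.03 and 16.4 FPKM in knockout, against 16.1 and 16.4 FPKM in wild type (0.05 ± 0.12, adjusted p = 0.759). Sytl2, a synaptotagmin-like protein of vesicle docking, Tpsg1, a membrane-anchored tryptase, and Bcas1 missed the threshold, at 0.23, 0.43 and -0.09 on the log2 scale (adjusted p = 0.121, 0.0653 and 0.481). Kcnma1, a calcium-activated potassium channel, was at 2.04 and 2.89 FPKM in knockout, against 3.55 and 2.85 FPKM in wild type, with overlapping groups (adjusted p = 0.249).

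Counted by overlap alone, 13 of the 31 genes had both knockout libraries above both wild-type libraries in FPKM and 11 had both below, where 30.4% and 42.5% of all tested genes did. That measure follows FPKM as deposited, without the scaling factors of the count test.

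Genes around mucus production were read from 5 further lists. Over all tested genes, 23.0% rose and 20.8% fell, and the counts of every list stand beside these shares. A count near them is no result about its list. Among Notch and secretory fate genes, 6 of 32 tested rose and 9 fell, where lower calls were 5 with DESeq2 and 5 without knockout replicate 1. Hes1, the Notch target that represses Atoh1, was at 22.8 and 24.7 FPKM in knockout, against 49.1 and 49.0 FPKM in wild type (-0.94 ± 0.10, adjusted p = 0.000122), and the Notch ligand Dll1 and the crypt factor Sox9 fell by 1.62 and 1.61 on the log2 scale (adjusted p = 0.000181 and 0.00019). Xbp1, the factor that IRE1-type sensors activate, was at 145 and 130 FPKM in knockout, against 85.3 and 80.0 FPKM in wild type (0.84 ± 0.09, adjusted p = 0.00012).

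Of 10 tested type 2 cytokine receptor and signalling genes, 4 rose and 0 fell, where 23.0% and 20.8% of all tested genes did. Il4ra, the receptor chain shared by interleukin-4 and interleukin-13, was at 24.3 and 24.6 FPKM in knockout, against 5.6 and 6.08 FPKM in wild type (2.17 ± 0.10, adjusted p = 8.49e-07). Its partner chain Il13ra1 rose by 0.42 (adjusted p = 0.0186), and Il33 and its receptor gene Il1rl1 rose by 0.93 and 0.90 (adjusted p = 0.0259 and 0.0108). Higher calls in this list fell to 2 with DESeq2 and to 1 without wild-type replicate 2. Of the cytokine genes, Il5 had too few counts to be tested, and Il4, Il13 and Il9 were not analysed here.

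In the mucin granule secretion list, 7 of 35 tested genes rose and 12 fell; higher calls were 3 with DESeq2 and 2 with limma on equal totals. The 7 that rose included Unc13d and Nsf, by 2.33 and 1.35 on the log2 scale. The 4 with the smallest p were ion transport genes, and all 4 fell. Ano1 and Best2, which encode calcium-activated chloride and anion channels, were at 12.7 and 15.6 and at 5.65 and 7.6 FPKM in knockout, against 90.5 and 93.1 and 45.7 and 48.9 FPKM in wild type. The bicarbonate transporter Slc4a4 fell by 3.23 and the chloride and bicarbonate exchanger Slc26a3, a gene of absorptive cells, by 1.49 (adjusted p = 6.66e-07 and 1.12e-06).

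Of 32 tested genes in the list of other mucus layer and goblet proteins, 15 rose and 11 fell. Among the 15 that rose, Dmbt1 was at 1720 and 1650 FPKM in knockout, against 1039 and 981 FPKM in wild type (0.84 ± 0.05, adjusted p = 2.71e-06). Lgals9, also among them, rose by 1.46 on the log2 scale (adjusted p = 1.19e-05). Tgm3, a transglutaminase known to cross-link Muc2, was at 34.6 and 42.0 FPKM in knockout, against 682 and 689 FPKM in wild type (-4.06 ± 0.10, adjusted p = 3.52e-08). Klk1, a tissue kallikrein whose transcript list differs between the files, and Mep1a, a meprin protease subunit, fell by 2.75 and 2.91. The other meprin subunit gene, Mep1b, rose by 0.64 (adjusted p = 0.0023). Tgm3 and Klk1 had fractional counts, as did Sox9, Slc4a4 and Il1rl1 of the lists above. Reads of these genes could be shared with similar sequences, so their values are less certain. Of the other mucins and mucin-like genes only 4 had enough counts, and none was a gel-forming mucin: Cd164 rose by 0.32 (adjusted p = 0.0452), with overlapping FPKM and no call in 10 alternative settings, while Parm1 and Cd24a fell by 0.48 and 0.73 (adjusted p = 0.00203 and 0.000661).

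**Figure D4:**
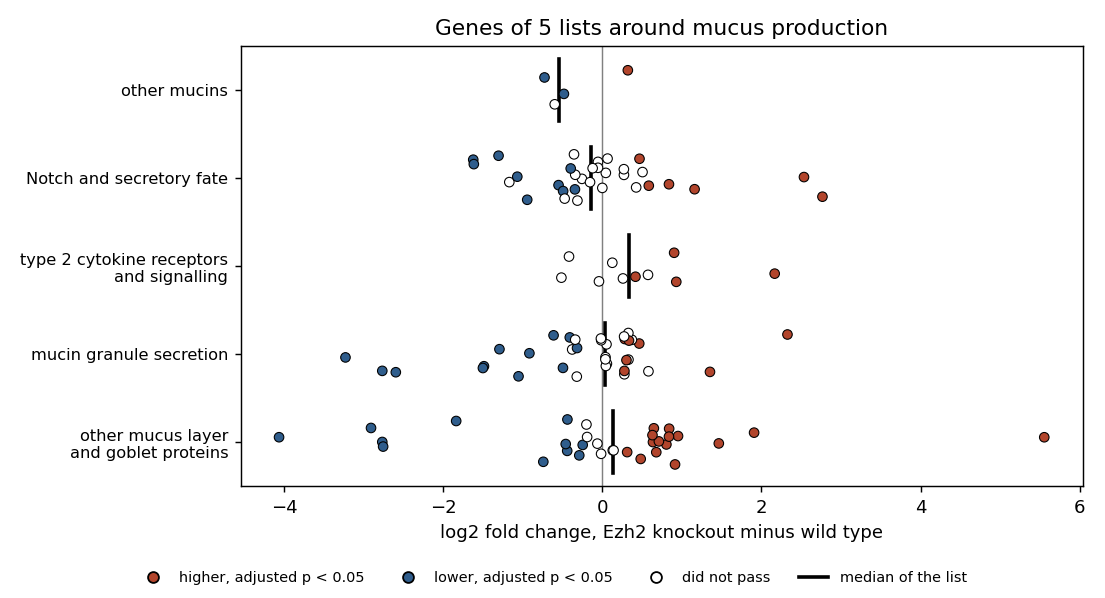
Log2 fold change (knockout minus wild type) of each tested gene in 5 lists around mucus production; red points were higher and blue points lower at an adjusted p under 0.05, open points did not pass, and black bars are list medians. The mucin granule secretion list ranges from -3.23 to 2.33 around a median of 0.04, and the list of other mucus layer and goblet proteins from -4.06 to 5.55 around 0.14.

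Markers of the other cells in these libraries moved with the genotype too, and their part in the values above was not tested. For comparison with the counts below, 23.0% of all tested genes rose and 20.8% fell. The 2 markers named for a cell type are its most abundant by mean FPKM over all 4 libraries, an order that can differ within a group. The 6 pan-epithelial markers, such as Krt8 and Krt19, summed to 8873 and 9212 FPKM in knockout, against 8011 and 8359 FPKM in wild type, and 4 rose and 2 fell. Krt8 and Krt19, which made up most of that sum, rose by 0.30 and 0.29 on the log2 scale. The 2 that fell were Epcam and Cdh1, by 0.27 and 0.60 (adjusted p = 0.0182 and 0.000148). The 10 absorptive colonocyte markers summed to 2305 and 2470 FPKM in knockout, against 4131 and 4130 FPKM in wild type, with 3 higher and 6 lower. Car4 and Car1 fell by 2.09 and 1.37 on the log2 scale, while Krt20, Slc9a3 and Vil1 rose by 1.25, 2.08 and 0.58. T and NK cell markers (7 of 9 tested rose, Gzmb and Cd3g among them) summed to 57.5 and 61.5 FPKM in knockout, against 15.3 and 15.2 FPKM in wild type. Macrophage and dendritic cell markers (6 of 9 rose, such as Lyz2 and C1qa) summed to 409 and 467 FPKM in knockout, against 306 and 333 FPKM in wild type. Fibroblast and smooth muscle markers (8 of 9 fell, such as Tagln and Acta2) summed to 1046 and 1339 FPKM in knockout, against 2317 and 2501 FPKM in wild type.

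Markers of other secretory and minor cell types did not move alike. Enteroendocrine markers, such as Pyy and Insl5, had 3 higher and 2 lower of 9 and summed to 359 and 356 FPKM in knockout, against 310.3 and 349 FPKM in wild type. Pyy was among the 3 higher, and Insl5 did not pass (-0.29, adjusted p = 0.125). Tuft markers, such as Ptgs1 and Alox5ap, had 2 higher and 2 lower of 5 tested, at 19.2 and 20.3 FPKM in all in knockout, against 21.0 and 19.8 FPKM in wild type. Paneth cell genes, such as Lyz1 and Mmp7, had 2 higher of 3 tested and summed to 53.8 and 47.1 FPKM in knockout, against 19.98 and 19.5 FPKM in wild type. The 2 higher were Mmp7 and Ang4, by 5.58 and 1.91 on the log2 scale, while Lyz1 did not pass (0.14, adjusted p = 0.586). Ang4 rested on 48 and 19 counts in knockout, against 6 and 12 in wild type. Stem and transit cell markers, such as Birc5 and Top2a, had 4 higher and 1 lower of 8 tested, at 151 and 138 FPKM in knockout, against 79.3 and 75.5 FPKM in wild type. The 4 higher were the cell cycle genes Birc5, Top2a, Ccnb1 and Mki67. Axin2 fell by 1.08 on the log2 scale, and Lgr5, Ascl2 and Smoc2 did not pass (-0.54, -0.49 and 0.06). B and plasma cell markers, such as Jchain and Cd79a, had 3 higher and 3 lower of 7 and summed to 265 and 349 FPKM in knockout, against 219 and 198 FPKM in wild type. Neutrophil markers had 3 higher of 5 tested. S100a8 was at 98.0 and 89.6 FPKM in knockout, against 1.64 and 2.63 FPKM in wild type, and S100a9 rose too. Csf3r, the other that rose, was low, at 1.77 and 2.22 FPKM in knockout, against 0.86 and 0.72 FPKM in wild type. Cxcr2 did not pass (adjusted p = 0.339). Ly6g was listed only in the replicate 2 files and gives no comparison. Endothelial markers, such as Pecam1 and Cdh5, had 3 lower of 6, at 12.4 and 13.7 FPKM in knockout, against 20.9 and 20.5 FPKM in wild type. Pecam1 was among the 3 lower, and Cdh5 did not pass (-0.33, adjusted p = 0.348). Finally, 3 of 3 tested erythroid genes, such as Hba-a1 and Hba-a2, fell, at 13.1 and 26.95 FPKM in all in knockout, against 118 and 93.1 FPKM in wild type, with fractional counts that the near-identical copies may share.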

How the data were processed

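The data are RNA-seq of colon epithelial cells, 2 Ezh2 knockout and 2 wild-type libraries, all after DSS, made from total RNA with a TruSeq kit per the labels' protocols. Per the file headers, the authors deposited an expected count (an estimated count that need not be whole), a transcript length (unit other, not used in any test) and an FPKM value for each gene and library. The submitters' processing notes list Bowtie2 and BWA without versions or roles, together with the human build hg19, although the labels say mouse and 99.72% of gene identifiers matched the mouse RefSeq table (GRCm38.p6), which gave the symbols. The only coordinates given are therefore those of the promoter windows, which carry the build of the RefSeq table. What computed the counts is not stated in the sources read. A gene without a row in 1 file was set to 0 there, and the replicate 1 and replicate 2 files use different annotation versions.

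Expected counts were rounded and fitted in R 4.3.3 using glmQLFit and glmQLFTest of edgeR 4.0.16 (TMM factors, filterByExpr, two-sided, 2 libraries against 2, no block) over 13608 genes, with Benjamini-Hochberg adjustment over all of them and a threshold of 0.05. A standard error is the size of the log2 fold change over the root of its F statistic. The scripts were tested on simulated counts. Alternatives used DESeq2 1.42.0, limma 3.58.1 on log2(FPKM + 1, 0.1 or 5) for genes with a mean FPKM of at least 1, other scalings and filters, the replicate block, only those genes whose transcripts match across files, and each library left out. Library totals between 5037367 and 5446998 counts limit the precision of low genes, and floors cover counting error only.

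The members, the lists and the roles were chosen with earlier results of these data known, so lists are described by counts and medians and have no test of their own. All 36 members are named. Of each further list, up to 4 called genes with the smallest p, and of each cell type list the 2 most abundant genes, are named, and the few others were named after their values were seen.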

Additional observations from a re-analysis of the deposited data

How the results depend on the processing

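Over the 31 tested genes and 16 alternative settings, 494 values could be computed, of which 448 kept their direction and their side of the threshold. Of the 18 called genes, 14 kept both under every setting, and Klf4, Zg16, Ccl9 and Capn8 lost their call in 10 values in all. No called gene turned its direction. The cause was not tested for any of the following.

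The genes that turned did not pass in the main test or in the setting. With 1 library left out, Atoh1 ranged from -0.233 to 0.0605, Creb3l4 from -0.0373 to 0.139 and Capn9 from -0.0044 to 0.105. Creb3l4 was at -0.0474 with library totals alone, at -0.0505, -0.0558 and -0.0356 with limma on log2(FPKM + 1), log2(FPKM + 0.1) and log2(FPKM + 5), and at -0.123 with limma on equal totals. Fcgbp was at -0.064 and -0.0871 with limma on equal totals and on quantile normalized values. Capn9 was at -0.0497 with library totals alone, at -0.0487, -0.0515 and -0.0392 with limma at the pseudocounts 1, 0.1 and 5, and at -0.124 and -0.001 with equal totals and quantile normalization.

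Library totals alone moved the median log2 fold change of all genes to -0.103 and limma on equal totals to -0.145, against -0.002 with TMM factors, and genes higher in the knockout made up 42.4% and 36.4% of calls in these settings, against 52.5%. Higher calls over all genes numbered 1954 with limma on equal totals, against 3126, and lower calls 1721 with DESeq2, against 2824. Ern2 was called lower, 1 member of its role, with library totals alone, with the replicate block and in all 5 limma settings, against 0. The higher call among traffic, protease and channel genes was 0 with DESeq2 and with limma on equal totals and 3 with the replicate block, against 1. Lower calls among secreted mucus proteins were 1 with DESeq2 and with no filter, against 2. With limma on equal totals and on quantile normalized values and with the replicate block they were 3.

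With 1 library left out, the lone library of its group is assumed to vary like the other group. Higher calls then ranged from 2442 to 3053 and lower calls from 2133 to 2711 over all genes, and from 9 to 13 and from 5 to 8 over the members. Among secreted mucus proteins higher calls ranged from 1 to 2 and lower calls from 1 to 3, and among traffic, protease and channel genes higher calls ranged from 0 to 2.

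The labels do not say that a replicate number pairs libraries. Deviations of same-numbered libraries from their group means correlated at 0.299 over the 13070 genes whose transcripts match across files, and at 0.531 over the 5737 of them with a mean log2 CPM over 5. With the replicate block, 14 members were called higher and 9 lower, against 11 and 7, the additional calls being Fcgbp, Sytl2 and Tpsg1 (higher) and Tff3 and Ern2 (lower), and no call was lost. Depth limits Tff1, Tff2 and Agr3, which have at most 3 counts in any library.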

Other observations

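The Clca family, whose member Clca1 is described above, lies on chromosome 3, and its members did not move alike; these genes were named after their values were seen. Clca4b was at 889 and 930.3 FPKM in the knockout libraries, against 9.4 and 9.25 FPKM in the wild-type libraries (log2 fold change 6.71 ± 0.09, adjusted p = 1.02e-09 with edgeR), and on the FPKM scale it exceeded Clca1 in both knockout libraries. Clca3b was at 297 and 271 FPKM in knockout, against 33.5 and 32.5 FPKM in wild type (3.21 ± 0.09, adjusted p = 4.8e-08). Clca3a1 and Clca3a2, both under 10 FPKM, rose by 2.53 and 2.71 on the log2 scale (adjusted p = 0.000275 and 5.72e-05). Clca4a, the neighbour of Clca1, was at 44.8 and 54.0 FPKM in knockout, against 106 and 105 FPKM in wild type (-0.99 ± 0.10, adjusted p = 9.71e-05). All of these but Clca1 had fractional counts, so reads could be shared between the copies and their values are uncertain, while the counts of Clca1 were whole in every library.

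In the resistin family, only Retnlb passed among the 3 genes that could be tested. Retnla, its neighbour on chromosome 16, was counted at 7 and 6 in the knockout libraries, against 32 and 10 in the wild-type libraries (-1.66 ± 0.62, adjusted p = 0.0576). Retn was counted at 13 and 16 in knockout, against 9 and 4 in wild type (1.16 ± 0.51, adjusted p = 0.0979), and Retnlg at 3 and 3 in knockout, with no count in wild type. Whether these changes differ from that of Retnlb was not tested.

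Pla2g2a, a phospholipase that kills bacteria, had the largest rise in the list of other mucus layer and goblet proteins (5.55 on the log2 scale), and Neurog3 and Bhlha15, factors of endocrine and of secretory cells, the largest in the list of Notch and secretory fate genes (2.77 and 2.53), each past the threshold of edgeR's test; Neurog3 rested on 21 and 14 counts in knockout, against 5 and 0 in wild type, and Bhlha15 had fractional counts.

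Guca2b, which encodes uroguanylin and lies next to Guca2a on chromosome 4, rose by 1.25 on the log2 scale (adjusted p = 0.000641 with edgeR), where Guca2a fell by 1.16. The difference between these genes was not tested, and Guca2b was picked after its value was seen.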
